A study of Rattus norvegicus with 19 samples.

Results

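The matrix proteoglycans and crosslinking proteins of the rat dorsal root ganglion are described here through 10 genes: the small leucine-rich proteoglycans Dcn, Lum, Bgn, Fmod and Ogn, the crosslinking enzymes Lox and Loxl1, and the matrix glycoproteins Sparc, Fn1 and Spon2. Members were all probe sets whose gene symbol in the array's annotation is one of these names. This gave 15 probe sets of 31042, for 10 genes of 14217 with a probe set of a single symbol. Bgn, Dcn, Fmod, Fn1, Loxl1, Lum and Spon2 had 1 probe set each, Lox and Sparc 2 each and Ogn 4.

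Single T11 ganglia of 19 rats were measured on Affymetrix rat genome arrays, with 1 array per rat, so that replicates are separate animals. The rats were adult female Sprague-Dawley animals, 5 naive without surgery, 7 taken at day 7 and 7 at day 14 after surgery. Operated rats had unilateral transection of the dorsal and lateral cutaneous nerves on both flanking levels (T9 and T10, T12 and T13), while the T11 nerves stayed intact beside denervated skin and sprouted into it. The labels name no transgene or test drug, and all rats were killed by pentobarbital overdose. Naive rats serve without a sham operation, so wounding and denervation of the neighbouring skin cannot be told apart. Each rat's code in the labels begins with AI, AJ or AK, and the labels do not say what this prefix means. Values are log2 expression levels, where a difference of 1 is a doubling, and the levels of different probe sets cannot be set against each other.

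Small leucine-rich proteoglycans are secreted proteins of short leucine-rich repeats, many with sugar chains, that sit on collagen fibrils and limit how they grow. Lysyl oxidases then oxidise lysines of collagen and elastin so that neighbouring molecules bond covalently, and glycoproteins such as fibronectin and SPARC link the fibrils to cells. In a sensory ganglion these products come from fibroblasts of the endoneurium and capsule and also from glial and vascular cells.

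Regulatory sequence is shown for the members that had a difference between day 14 and day 7 at an unadjusted p under 0.05 and an entry in the RefSeq promoter table (assembly GRCr8), which matched 6 of the 10 members by symbol: Lum, Fmod, Ogn, Loxl1, Sparc and Spon2. Each run holds the 120 bases before the transcript start that the table lists, 5′ to 3′ on the gene's strand, and capitals mark the letters of the motifs searched. Lum lies at chr7:34245586-34245705 (plus strand), Sparc at chr10:40038817-40038936 (minus strand) and Spon2 at chr14:81736596-81736715 (plus strand). The runs of Lum and Spon2 lie inside the RefSeq spans of their genes (34245323-34252510 and 81713070-81742510), so the starts they precede are internal ones. The listed start of Ogn, not printed, also lies inside its gene.
Lum: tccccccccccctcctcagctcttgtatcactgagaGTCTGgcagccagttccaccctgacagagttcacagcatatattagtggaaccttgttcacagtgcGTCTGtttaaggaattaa
Sparc: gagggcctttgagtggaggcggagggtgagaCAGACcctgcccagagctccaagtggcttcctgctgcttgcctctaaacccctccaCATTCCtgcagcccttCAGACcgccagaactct
Spon2: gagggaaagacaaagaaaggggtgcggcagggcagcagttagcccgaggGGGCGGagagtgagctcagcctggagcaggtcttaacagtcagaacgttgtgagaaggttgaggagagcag

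The motifs were searched on both strands of the 250 bases before each start, and none of them contains another. The short SMAD element CAGAC was found in 6 of the 6 members with an entry and in 42.9% of 33469 promoters of the same length. The TEAD letters GGAATG were found in 3 of 6 members (Ogn, Loxl1 and Sparc) and in 12.1% of promoters. CCAAT was found in 3 of 6 (34.0% of promoters), the GC box GGGCGG in 2 of 6 (30.5%) and TATAAA in 1 of 6 (12.9%). The AP-1 letters TGANTCA were found in 0 of 6 members and in 6.34% of promoters. In the printed runs the SMAD letters begin 84 and 18 bases before the start in Lum and 89 and 17 before it in Sparc, whose TEAD letters begin at 33, and the GC box of Spon2 begins at 71. A match is a description of letters and not evidence of binding.

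None of the 15 member probe sets passed the threshold of an adjusted p of 0.05 in limma in any comparison. Against naive ganglia at day 14, 0 of 15 passed where 0.139% of all probe sets did. At day 7 against naive, and at day 14 against day 7, 0 of 15 members passed and 0.0% of all probe sets did. At an unadjusted p under 0.05, day 14 against naive held 2 members higher (Lox 1368171_at and Spon2, against 10.9% of all probe sets) and 1 lower (Sparc 1367562_at, against 8.79%). Day 7 against naive held 0 members either way, with backgrounds of 3.69% higher and 5.0% lower. Day 14 against day 7 held 5 members higher of 15, namely Dcn, Lum, Lox 1368171_at, Sparc 1367563_at and Spon2, where 7.11% of all probe sets were, and 1 lower, Sparc 1367562_at, where 4.22% were. Members varied together from rat to rat within groups, as described below, so such counts do not stand for separate observations.

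Groups overlapped for every member in every comparison. Probe sets whose groups do not overlap made up 1.82% of all at day 14 against naive, 0.441% at day 7 against naive and 0.187% at day 14 against day 7, and 0 of 15 members were among them. Over the 15 member probe sets the median log2 difference was 0.01 at day 14 against naive (8 higher, 7 lower), beside 0.02 over all probe sets. At day 7 against naive it was -0.15 (2 higher, 13 lower), beside 0.01 over all. The 3' minus 5' signal of the Gapdh and Actb control probe sets, a sign of RNA quality, averaged 3.27 ± 0.08 (SD, n = 7) at day 7 and 3.42 ± 0.18 (SD, n = 5) in naive ganglia. With it as a covariate, day 7 against naive split into 7 higher and 8 lower with a median of -0.05, and Bgn, Fmod, both Lox probe sets and Loxl1 changed sign. The same covariate, with a day 14 mean of 3.26 ± 0.07 (SD, n = 7), gave 12 higher and 3 lower for day 14 against naive (median 0.07), and the code prefix as a block also gave 12 and 3 (median 0.22). Between day 14 and day 7 the median was 0.17 (13 higher, 2 lower), beside 0.01 over all, and the covariate left the split at 13 and 2 with a median of 0.18. The prefix block also gave 13 and 2, with a median of 0.34. With a covariate of fibroblast markers, described below, the split was 11 and 4 (median 0.10). Without the ganglia high in skeletal muscle markers it was also 11 and 4 (median 0.11). The 3 comparisons share arrays, each group entering 2 of them, so these counts are not independent of each other. These are whole ganglia, in which fewer cells of a type and less RNA per cell cannot be told apart.

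**Figure D1:**
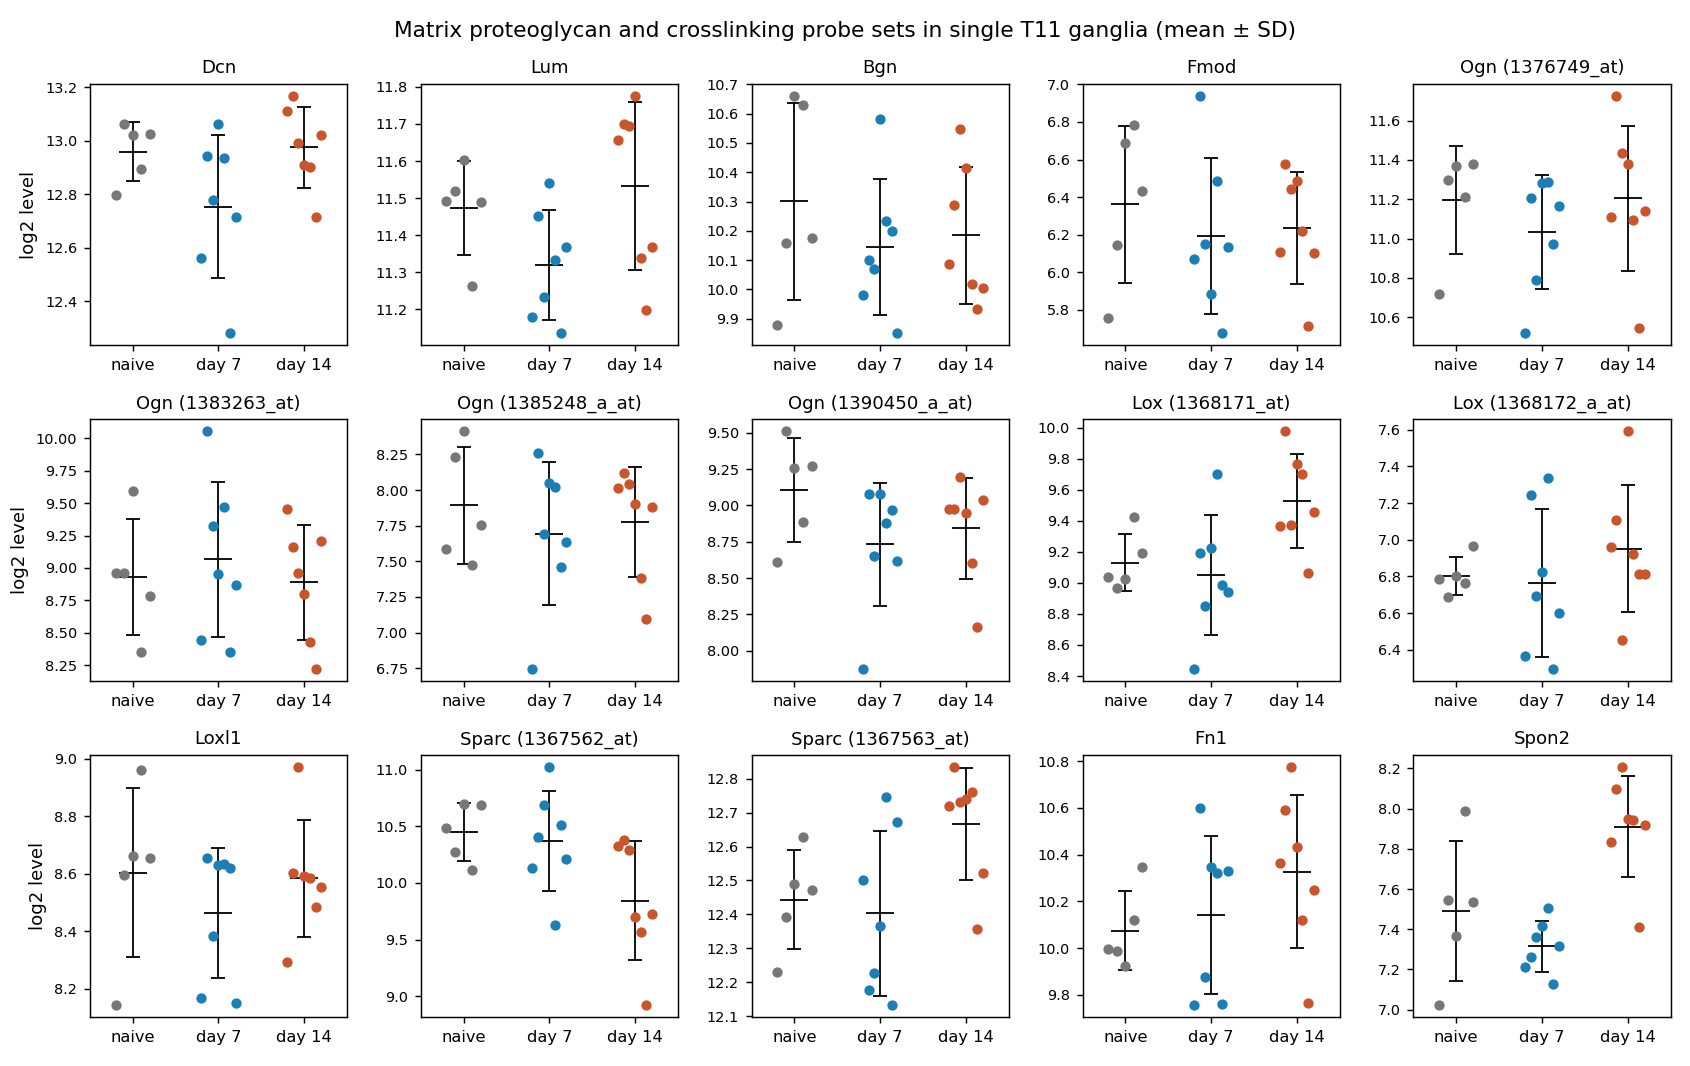
Log2 level of each of the 15 member probe sets in every ganglion (1 point per rat), with naive, day 7 and day 14 from left to right and bars for the mean ± SD; each panel has its own axis. Spon2 shows 6 of 7 day 14 ganglia above the highest day 7 ganglion, and the Sparc panels differ from each other in which group is lowest.

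Decorin (Dcn), the archetype of the family, coats collagen fibrils and binds TGF-beta. Its log2 level was 12.80, 13.06, 13.02, 12.89 and 13.02 in the 5 naive ganglia, 12.28 to 13.06 with a median of 12.78 at day 7, and 12.72 to 13.17 with a median of 12.99 at day 14. The day 7 group reached lowest, and 4 of 7 of its ganglia lay below every naive one while 1 lay just above them. The day 7 minus naive difference of Dcn was -0.21 ± 0.11 (SE) on the log2 scale (limma adjusted p = 0.611). Between day 14 and day 7 the difference was 0.22 ± 0.10 (limma adjusted p = 0.413), with 6 of 7 day 14 ganglia above the day 7 median. Day 14 against naive gave 0.02 ± 0.11 (95% interval -0.21 to 0.24).

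Lumican (Lum), a keratan sulfate proteoglycan that in mice keeps corneal collagen fibrils regular, lies beside Dcn on chromosome 7, followed by its relatives Kera and Epyc (RefSeq, GRCr8). Naive ganglia had log2 levels of 11.49, 11.52, 11.60, 11.26 and 11.49. The day 7 ganglia ran from 11.14 to 11.54 (median 11.33) and the day 14 ganglia from 11.20 to 11.78 (median 11.66). Of the day 14 ganglia, 4 lay above every naive and every day 7 ganglion, and the other 3 lay between 11.20 and 11.37. The mean difference was 0.21 ± 0.09 (SE) for day 14 against day 7 (limma adjusted p = 0.394), -0.15 ± 0.10 for day 7 against naive and 0.06 ± 0.10 for day 14 against naive.

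Biglycan (Bgn), the nearest relative of decorin and in soluble form a ligand of Toll-like receptors, varied more widely among naive rats than its group means differed. Its naive levels were 9.88, 10.16, 10.66, 10.63 and 10.18, against which all 7 day 14 ganglia and 6 of 7 day 7 ganglia fell inside the naive range. The range was 9.85 to 10.58 at day 7 (median 10.10) and 9.93 to 10.55 at day 14 (median 10.09). Differences were -0.12 ± 0.14 (SE) for day 14 against naive, -0.16 ± 0.14 for day 7 against naive and 0.04 ± 0.13 for day 14 against day 7, the last with a 95% interval of -0.23 to 0.31.

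Fibromodulin (Fmod), which binds collagen beside the sites where lysyl oxidase acts, lies next to its relatives Prelp and Optc on chromosome 13. Its mean level over all ganglia, 6.25, lay below 6.72, the median of all probe sets. Its levels were 5.76, 6.14, 6.69, 6.78 and 6.43 in naive ganglia, 5.67 to 6.94 (median 6.14) at day 7 and 5.71 to 6.57 (median 6.22) at day 14. Each operated range covered most of the naive one. The differences were -0.13 ± 0.20 (SE) for day 14 against naive, -0.17 ± 0.20 for day 7 against naive and 0.04 ± 0.18 between the operated groups.

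Osteoglycin (Ogn), also called mimecan, lies beside Omd and Aspn on chromosome 17 and was read by 4 probe sets. Probe set 1376749_at was 10.72, 11.30, 11.37, 11.21 and 11.38 in naive ganglia, 10.52 to 11.29 (median 11.17) at day 7 and 10.54 to 11.73 (median 11.14) at day 14. Naive replicate 1 stood apart below the other 4 naive ganglia, and the lowest ganglion of each operated group lay lower still. This probe set differed by 0.01 ± 0.17 (SE) between day 14 and naive, by -0.16 ± 0.17 between day 7 and naive, and by 0.17 ± 0.16 between day 14 and day 7.

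The other Ogn probe sets spread more from rat to rat. Probe set 1383263_at ranged from 8.35 to 9.59 in naive ganglia, from 8.35 to 10.05 at day 7 and from 8.22 to 9.46 at day 14. Probe set 1385248_a_at ranged from 7.47 to 8.41, from 6.74 to 8.26 and from 7.10 to 8.12 in the same order of groups, and 1390450_a_at from 8.61 to 9.51, from 7.87 to 9.08 and from 8.16 to 9.19. In the last, 0 of 7 ganglia of either operated group reached above the naive median of 9.26. At day 7 the differences from naive were 0.14 ± 0.27 (SE) for 1383263_at, -0.20 ± 0.23 for 1385248_a_at and -0.37 ± 0.20 for 1390450_a_at (limma adjusted p = 0.623 for the last). Between day 14 and day 7 they were -0.18 ± 0.24, 0.08 ± 0.21 and 0.11 ± 0.18, so the Ogn probe sets did not share 1 sign.

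Lysyl oxidase (Lox) is the enzyme that starts the covalent crosslinking of collagen and elastin. Probe set 1368171_at had log2 levels of 9.04, 8.97, 9.02, 9.42 and 9.19 in naive ganglia, 8.44 to 9.70 (median 8.98) at day 7 and 9.07 to 9.98 (median 9.45) at day 14. All 7 day 14 ganglia lay above both the naive and the day 7 median, 4 of them above every naive and 3 above every day 7 ganglion. Lox averaged 9.53 ± 0.31 (SD, n = 7) in day 14 ganglia and 9.05 ± 0.39 (SD, n = 7) in day 7 ganglia, a difference of 0.48 ± 0.15 (SE) and a fold of 1.40 (limma adjusted p = 0.320). Against the naive mean of 9.13 ± 0.18 (SD, n = 5) the day 14 difference was 0.40 ± 0.17 (limma adjusted p = 0.201) and the day 7 difference -0.08 ± 0.17.

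The second Lox probe set, 1368172_a_at, lay at 6.78, 6.69, 6.80, 6.76 and 6.97 in naive ganglia, where it was tight. It ran from 6.29 to 7.34 at day 7 and from 6.45 to 7.59 at day 14, so operated ganglia lay on both sides of the naive range. Its differences had the sign of the first probe set and a smaller size, at 0.19 ± 0.16 (SE) for day 14 against day 7, 0.15 ± 0.18 for day 14 against naive and -0.04 ± 0.18 for day 7 against naive. Within groups the probe sets of Lox varied together over the 19 ganglia (Pearson's r = 0.686, permutation p = 0.00541, adjusted 0.00811 over 9 relations; Spearman's rho = 0.630, permutation p = 0.0113, adjusted 0.0189). Without the 2 ganglia farthest from the median r was 0.526, and with means of each group and code prefix removed it was 0.691.

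Loxl1 is a relative of Lox that mice need for elastic fibres. Naive ganglia had Loxl1 levels of 8.14, 8.59, 8.66, 8.96 and 8.65, beside 8.15 to 8.65 (median 8.62) at day 7 and 8.30 to 8.97 (median 8.59) at day 14. The day 7 ganglia all lay inside the naive range. Differences were -0.02 ± 0.13 (SE) for day 14 against naive, -0.14 ± 0.13 for day 7 against naive and 0.12 ± 0.12 between day 14 and day 7, the last with a 95% interval of -0.12 to 0.36.

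SPARC (Sparc), a collagen-binding glycoprotein that shapes fibril assembly without being a structural part of the fibril, gave opposite signs on its 2 probe sets at day 14, against naive and against day 7. Probe set 1367563_at had log2 levels of 12.23, 12.39, 12.49, 12.63 and 12.47 in naive ganglia, 12.13 to 12.75 (median 12.37) at day 7 and 12.36 to 12.83 (median 12.73) at day 14. Of the day 14 ganglia 5 lay above every naive one. Probe set 1367562_at had 10.48, 10.27, 10.69, 10.11 and 10.68 in naive ganglia, 9.63 to 11.02 (median 10.40) at day 7 and 8.92 to 10.38 (median 9.73) at day 14. Here 4 of the 7 day 14 ganglia lay below every naive one and 0 reached the naive median.

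For Sparc 1367563_at the differences were 0.26 ± 0.10 (SE) for day 14 against day 7 (limma adjusted p = 0.358) and 0.22 ± 0.11 for day 14 against naive (limma adjusted p = 0.254). For Sparc 1367562_at they were -0.53 ± 0.21 (limma adjusted p = 0.380) and -0.61 ± 0.23 (limma adjusted p = 0.172). Within groups no relation between the 2 Sparc probe sets was found (Pearson's r = -0.0577, permutation p = 0.827, adjusted 0.827; Spearman's rho = -0.182, permutation p = 0.478, adjusted 0.478), and r was -0.367 without the 2 ganglia farthest from the median and -0.0104 within code prefixes. When the excess of 3' over 5' probe signal was added as a covariate, 1367562_at stood at -0.53 for day 14 against day 7 and at -0.66 for day 14 against naive. A direction for Sparc as a gene is therefore not given.

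Fibronectin (Fn1), the adhesive glycoprotein on which collagen and the lysyl oxidase precursor assemble, had levels of 9.996, 9.99, 9.92, 10.12 and 10.35 in naive ganglia. It ran from 9.76 to 10.60 (median 10.32) at day 7 and from 9.77 to 10.77 (median 10.36) at day 14. Of the day 7 ganglia 3 lay below every naive one and the other 4 at 10.32 or above, and 4 of the 7 day 14 ganglia lay above the naive range. The differences were 0.25 ± 0.16 (SE) for day 14 against naive (limma adjusted p = 0.383), 0.07 ± 0.16 for day 7 against naive and 0.19 ± 0.15 for day 14 against day 7.

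Spondin 2 (Spon2, also called mindin), a secreted F-spondin relative that in mice binds integrins and microbial surfaces, had the smallest p of all members. Its log2 levels were 7.02, 7.55, 7.37, 7.99 and 7.54 in naive ganglia, 7.13 to 7.50 (median 7.32) at day 7 and 7.41 to 8.21 (median 7.94) at day 14. All 7 day 14 ganglia lay above the day 7 median and 6 of them above every day 7 ganglion, the exception being replicate 6 at 7.41. Against naive ganglia 6 of 7 lay above the naive median but only 2 above the highest naive ganglion.

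Spon2 averaged 7.91 ± 0.25 (SD, n = 7) in day 14 ganglia and 7.31 ± 0.13 (SD, n = 7) in day 7 ganglia, a difference of 0.59 ± 0.12 (SE) with a 95% interval of 0.34 to 0.85 and a fold of 1.51. Its unadjusted p of 8.0e-05 was the 11th smallest of 31042 probe sets, and the limma adjusted p was 0.226. Against the naive mean of 7.49 ± 0.35 (SD, n = 5) day 14 stood 0.42 ± 0.13 higher (limma adjusted p = 0.122), and day 7 differed by -0.18 ± 0.13. In limma's test of any difference among the 3 groups, 8 probe sets passed over the whole array and 0 were members, with Spon2 at an adjusted p of 0.114.

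The code prefixes are not spread evenly over the groups. AI occurs at day 14 alone (5 rats), the other 2 day 14 rats are AJ, day 7 holds 5 AJ and 2 AK rats and naive holds 2 AJ and 3 AK rats. Within AJ, Spon2 averaged 8.08 in 2 day 14 ganglia, 7.36 in 5 day 7 ganglia and 7.19 in 2 naive ganglia, so day 14 stood 0.72 above day 7 and 0.88 above naive. Its day 7 minus naive difference was 0.17 within AJ but -0.49 within AK. With the prefix as a block Spon2 stood at 0.80 for day 14 against day 7 (limma adjusted p = 0.670) and at 0.67 for day 14 against naive (limma adjusted p = 0.564). The part of whatever the prefix AI marks cannot be told apart from that of day 14 in those 5 rats.

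Within AJ, Lox 1368171_at at day 14 stood 0.54 above day 7 and 0.54 above naive, Lum 0.40 above day 7 and 0.19 above naive, and Dcn 0.14 above day 7 and 0.04 above naive. Fn1 stood 0.48 above day 7 and 0.64 above naive within AJ. Sparc kept both signs there, with 1367563_at at 0.23 and 1367562_at at -0.34 for day 14 against day 7. Dcn differed by -0.10 at day 7 against naive within AJ and by -0.38 within AK.

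Single ganglia were low or high for many members at once. Day 14 replicate 6 was the lowest of its group for 13 of 15 member probe sets, naive replicate 1 for 8 and day 7 replicate 6 for 7. At the other end, 7 of 15 reached their day 14 maximum in replicate 2, and 6 reached their day 7 maximum in replicate 2. These counts include several probe sets each of Ogn, Lox and Sparc. No share over all probe sets stands beside them, so they are not read as a trait of the members. Day 14 replicate 6 was picked from these same values. Leaving it out had to raise the day 14 mean of any probe set lowest there, so the shift is only a description. Without day 14 replicate 6, Spon2 stood at 0.68 for day 14 against day 7 (limma adjusted p = 0.0743, against 0.226 with all arrays), Lox 1368171_at at 0.56, Lum at 0.27, Dcn at 0.26 and Fn1 at 0.28. Sparc 1367562_at, whose lowest value of 8.92 is on that array, then stood at -0.37 for day 14 against day 7 and -0.45 for day 14 against naive.

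**Figure D2:**
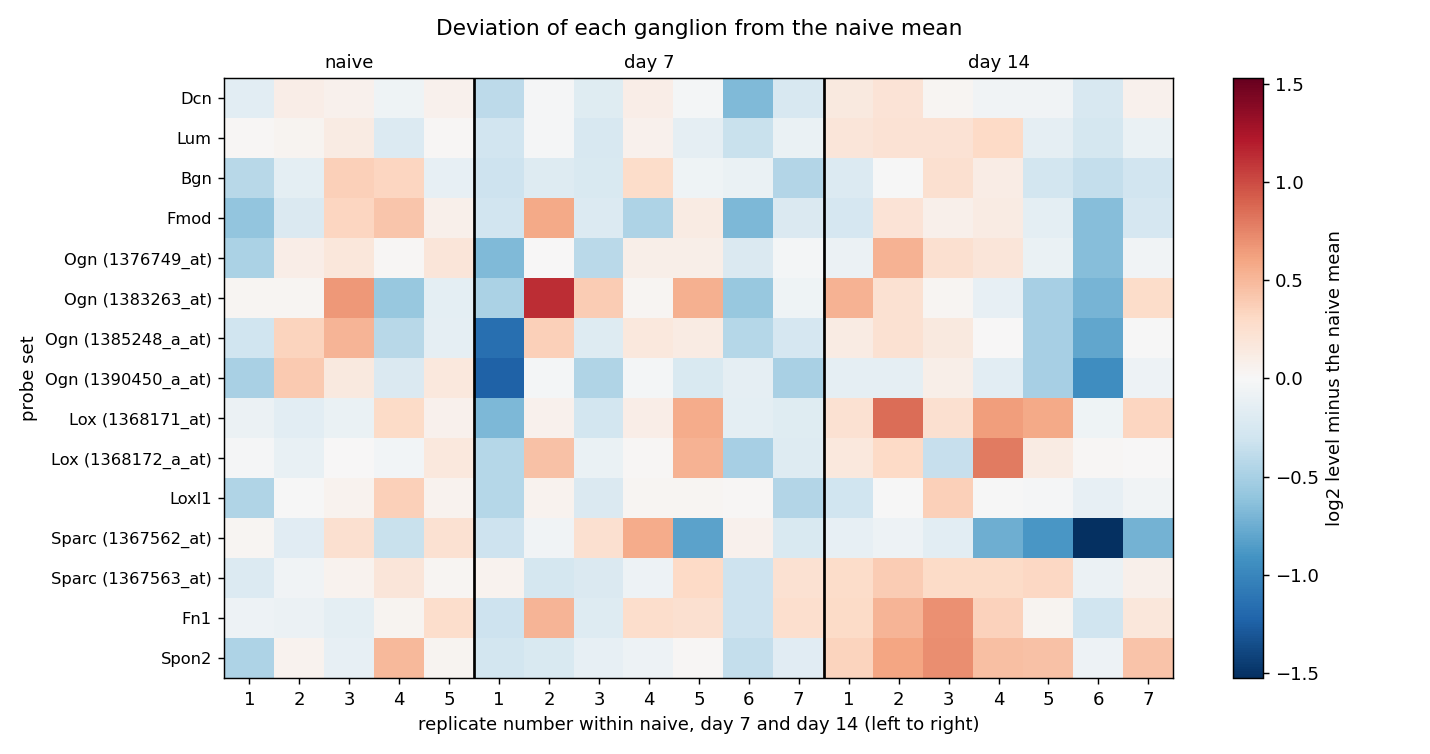
Log2 level minus the naive mean for each member probe set (rows) in each ganglion (columns, replicate numbers within naive, day 7 and day 14 from left to right). Day 14 replicate 6 is blue in 14 of 15 rows, and Sparc 1367562_at is the row whose day 14 ganglia are blue while those of Sparc 1367563_at are mostly red.

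With group means removed, the members varied together from rat to rat. Each gene was taken by its brightest probe set, and all 45 pairs of the 10 genes had a positive Pearson's r over 19 ganglia, with a median of 0.518, and 24 exceeded 0.5. The closest pairs were Ogn and Fn1 (0.781), Bgn and Loxl1 (0.768) and Lum and Fn1 (0.731), and the loosest was Lum and Loxl1 (0.0938). With means of each group and prefix removed, 45 of 45 pairs stayed positive and the median was 0.545. All values on an array share its RNA sample and its normalization, and the pairs are not independent. No share of positive pairs over other genes stands beside these counts, so they are not read as a trait of the members.

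The neighbours Dcn and Lum had r = 0.648 (permutation p = 0.00189, adjusted 0.0034 over 9 relations) and rho = 0.591 (permutation p = 0.0126, adjusted 0.0189). Without the 2 ganglia farthest from the median their r was 0.583, and within code prefixes it was 0.840. The 4 Ogn probe sets had r from 0.443 to 0.876 with each other, of which the weakest pair, 1376749_at and 1383263_at, had a permutation p of 0.0699 (adjusted 0.0786).

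**Figure D3:**
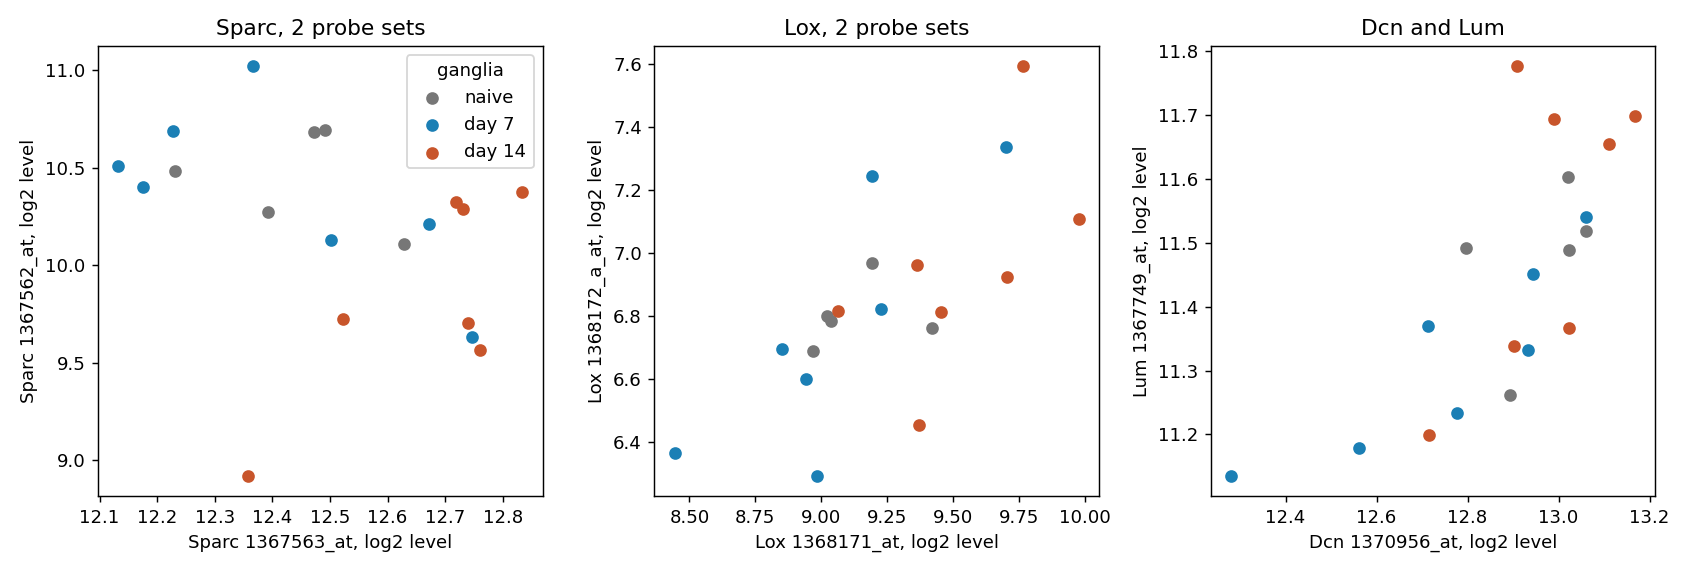
Log2 levels of 3 pairs of probe sets in single ganglia, with naive, day 7 and day 14 in separate colours: the 2 Sparc probe sets, the 2 Lox probe sets, and Dcn against Lum. With group means removed r was -0.0577 for Sparc, 0.686 for Lox and 0.648 for Dcn and Lum.

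The genes whose rat-to-rat pattern was most like the mean standardised deviation of the members were, among 14207 other genes, Col12a1 (r = 0.922), Colec12 (0.906), Serpinf1 (0.874), Ccdc3 (0.867), Pdgfrl (0.866), Aebp1 (0.865), Aoc3 (0.863) and Col6a1 (0.858). Col12a1 is a collagen of fibril surfaces, Col6a1 a chain of the microfibrillar type VI collagen, and Serpinf1 is also in the fibroblast marker list. Within code prefixes these r lay between 0.843 and 0.922, and without the 2 ganglia farthest from the median between 0.783 and 0.917. They rank likeness over 19 ganglia and carry no test.

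Marker lists of the cells a ganglion can hold were set beside the members. The mean of 11 measured fibroblast markers of 12 was 9.24 ± 0.15 (SD, n = 5) in naive, 9.18 ± 0.33 (SD, n = 7) in day 7 and 9.27 ± 0.24 (SD, n = 7) in day 14 ganglia. Its markers include Mfap5 and Col3a1, which are also in the matrix lists described last. It followed the member mean with r = 0.704 and rho = 0.779, and r was 0.703 without the 2 farthest ganglia and 0.667 within prefixes. The relation was uneven over the members, with r from 0.765 for Loxl1 and 0.752 for Bgn to 0.338 for Fmod and 0.0979 for Sparc, whose r with myelinating Schwann cell markers was 0.609. With this fibroblast mean as a covariate, day 14 against day 7 stood at 0.56 for Spon2, 0.43 for Lox 1368171_at, 0.19 for Dcn and 0.18 for Lum.

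Endothelial markers followed the member mean with r = 0.754 (rho 0.823, 0.785 without 2 ganglia, 0.720 within prefixes) and macrophage markers with r = 0.518 (rho 0.488, 0.549 and 0.489). Their means were 8.45, 8.54 and 8.46 for endothelial and 7.55, 7.48 and 7.72 for macrophage markers in naive, day 7 and day 14 ganglia. Myelinating Schwann cell markers, 5 of 8 measured, had r = 0.661 (rho 0.521, 0.538 and 0.716) and averaged 11.28 ± 0.15 (SD, n = 5) in naive, 11.02 ± 0.24 (SD, n = 7) in day 7 and 11.26 ± 0.14 (SD, n = 7) in day 14 ganglia. By brightest probe set, every member except Fn1 also had its lowest group mean at day 7. So did most marker lists, fibroblast and macrophage markers among them, but not endothelial, sensory neuron or skeletal muscle markers. The part of any cell type in that was not tested. Sensory neuron markers, 12 of 13 measured, lay between 11.86 and 12.19 in all ganglia, and had r = -0.0572 with the member mean (rho 0.0491, -0.0188 and 0.0175). Satellite glia markers had r = -0.280 (rho -0.289, -0.393 and -0.289). The other lists were looser than the fibroblast one, with r = 0.464 for perineurial and meningeal, 0.433 for mural, 0.422 for adipocyte, 0.331 for erythrocyte and 0.249 for central glial markers.

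Skeletal muscle markers, 9 of 10 measured, were high on 1 ganglion of each group, at 9.44 in naive replicate 1, 9.27 in day 7 replicate 7 and 7.90 in day 14 replicate 2. The next highest values were 6.49, 6.96 and 6.37. Their r with the member mean was -0.161 (rho -0.0632, 0.103 and -0.0429). Without these 3 ganglia Spon2 stood at 0.56 for day 14 against day 7 but at 0.27 for day 14 against naive, and Lox 1368171_at at 0.39 and 0.30.

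Of the lists of other matrix genes, 0 genes in any of 9 lists passed an adjusted p of 0.05 in limma in any comparison. The lists were chosen for role with earlier results of these data known, so their counts are not independent of these data. Among 9 measured of 12 other small leucine-rich proteoglycans the median difference was -0.03 at day 14 against naive, -0.04 at day 7 against naive and 0.10 for day 14 against day 7 (7 higher, 2 lower), and 0 had an unadjusted p under 0.05 in any of them. Omd, the neighbour of Ogn, stood at -0.35 ± 0.23 (SE) and Ecm2 at -0.42 ± 0.21 at day 7 against naive. Of 19 measured of 26 other enzymes of collagen processing, Ppib, a prolyl isomerase of the procollagen hydroxylation complex, stood at 0.19 ± 0.07 at day 14 against naive (limma adjusted p = 0.172), and Pcolce, which enhances removal of the procollagen C-terminus, at 0.27 ± 0.14. Only Ppib had an unadjusted p under 0.05 in this list, and it did so in that comparison alone. Over all probe sets 10.9% were higher and 8.79% lower at that level for day 14 against naive. The shares were 3.69% and 5.0% for day 7 against naive, and 7.11% and 4.22% for day 14 against day 7. Among the relatives of Lox, Loxl2 stood at -0.13 and Loxl3 at 0.03 at day 14 against naive.

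The fibrillar collagens, the substrate of Lox, had 11 of 11 genes measured. At day 7 all 11 lay below naive, 8 of them at an unadjusted p under 0.05 where 5.0% of all probe sets were lower, with a median of -0.28, beside 0.01 over all probe sets. No collagen values with the 3' minus 5' covariate or the prefix block are given here. Genes read on the same arrays are also not separate results. Col1a1, a chain of type I collagen, stood at -0.48 ± 0.13 (SE, limma adjusted p = 0.406) with its other probe set at -0.17. Col1a2, its partner chain, stood at -0.28 ± 0.09 (limma adjusted p = 0.438) with its other probe set at -0.34. Between day 14 and day 7, 10 of 11 were higher, 5 at an unadjusted p under 0.05 where 7.11% of all probe sets were, with a median of 0.25. Col1a1 stood at 0.63 ± 0.12 (limma adjusted p = 0.155), with its other probe set at 0.31, and Col1a2 at 0.34 ± 0.08 (limma adjusted p = 0.262). Against naive at day 14 the collagen median was 0.02, and Col24a1 stood at -0.94 ± 0.23 (limma adjusted p = 0.0766).

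Adhesive and matricellular glycoproteins other than the members had 38 of 43 genes measured, with medians of 0.08 at day 14 and -0.04 at day 7 against naive. At an unadjusted p under 0.05, 4 were higher and 1 lower at day 14 against naive, where 10.9% of all probe sets were higher and 8.79% lower. There were 1 higher and 4 lower at day 7 against naive (3.69% and 5.0% of all), and 7 higher and 1 lower at day 14 against day 7 (7.11% and 4.22% of all). Spp1 (osteopontin) stood at 0.77 ± 0.18 (SE) at day 14 (limma adjusted p = 0.0726) and at 0.58 ± 0.18 at day 7 (limma adjusted p = 0.426), and Fbn2, a fibrillin of microfibrils, at 0.39 ± 0.11 at day 14 (limma adjusted p = 0.0958). For the difference between day 14 and day 7, Spock1, a proteoglycan with a SPARC-like domain, stood at -0.30 ± 0.08 and Matn2 at 0.21 ± 0.06. Of 25 measured of 26 larger and cell-surface proteoglycans, Sdc1 stood at 0.61 ± 0.22 at day 14 against naive, with another Sdc1 probe set at 0.32, and Gpc3 at 0.38 ± 0.14 for day 14 against day 7, with another Gpc3 probe set at -0.03. Of these proteoglycans, 6 were higher and 1 lower at an unadjusted p under 0.05 for day 14 against naive (10.9% and 8.79% of all probe sets), and 5 higher and 0 lower for day 14 against day 7 (7.11% and 4.22% of all). Of 27 measured of 33 enzymes of glycosaminoglycan synthesis, 1 had an unadjusted p under 0.05 at day 14 against naive, the hyaluronan synthase Has2 at 0.20 ± 0.09.

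Receptors and signals linked to the members also held 0 genes past the threshold. At an unadjusted p under 0.05 and day 14 against naive, 3 receptors were higher and 2 lower, 2 genes of TGF-beta signalling higher and 0 lower, and 6 of 28 proteases or inhibitors higher and 3 lower. Over all probe sets 10.9% were higher and 8.79% lower in that comparison. Of 20 measured of 25 matrix receptors, Tlr2, at which soluble biglycan acts, stood at 0.32 ± 0.08 (SE) at day 14 against naive (limma adjusted p = 0.0726), and Itga1, a collagen-binding integrin chain, at 0.72 ± 0.23 (limma adjusted p = 0.123). Of 18 measured of 21 genes of TGF-beta signalling, which decorin restrains and which induces Lox and collagens, the feedback inhibitors Smad7 and Pmepa1 stood at 0.29 ± 0.07 (limma adjusted p = 0.0726) and 0.32 ± 0.10 (limma adjusted p = 0.128), with other Smad7 probe sets at 0.05 and 0.07. Of 28 proteases and inhibitors, all measured, Mmp24 stood at -0.34 ± 0.07 (limma adjusted p = 0.0534), with others of its probe sets at -0.31 and -0.10, and Plat, the tissue plasminogen activator, at 0.50 ± 0.11 (limma adjusted p = 0.0669). Timp1, an inhibitor of matrix metalloproteinases, stood at 0.42 ± 0.14 at day 7 against naive (limma adjusted p = 0.455).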

How the data were processed

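Ganglion RNA (100 ng per rat) was amplified in 2 linear rounds, per the labels' protocols. Of 20 rats, 1 naive rat is not analysed here. The authors deposited log2 values for every probe set. RMA and limma are named per the submitters' processing notes, with versions not given in the sources used here. A normalization of this kind equalises the value distributions of arrays, and a shift of most transcripts would then be hidden. The number of arrays limits the precision.

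The 57 control probe sets were left out, leaving 31042 tested. Gene names came from the platform annotation, and the 10 member symbols were unchanged in RefSeq. No 2 arrays were identical, with correlations of 0.987 to 0.997. Differences were fitted with limma 3.58.1 (R 4.3.3, lmFit and eBayes) on all 19 arrays together, and p-values were Benjamini-Hochberg adjusted across the 31042 probe sets of a comparison. Correlations used 100000 two-sided permutations within groups (numpy 2.4.6, scipy 1.17.1). The script was tested on simulated data. Lists used each gene's brightest probe set. Named are all members, the 2 genes of smallest p per list and comparison (text gives some), and the 8 genes most like the members, and Loxl2 and Loxl3 were named after their values were seen. The members and lists were chosen with earlier results of these data known. Alternatives covered filters, normalization, moderation, weights, blocks, covariates and leaving out each array.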

Additional observations from a re-analysis of the deposited data

Results flagged for a closer look

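In 84 groups of values (the member probe sets, the marker lists and the 3' minus 5' control signal, by group) the highest or lowest ganglion was set against its nearest neighbour over the group's range. In 9 of them it stood apart at Dixon's 95% level, where chance gives about 4.2.

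Among the members, Ogn 1376749_at was low in naive replicate 1 at 10.72, with the next at 11.21, and Ogn 1390450_a_at was low in day 7 replicate 1 at 7.87, with the next at 8.62. The fibroblast marker mean was low in naive replicate 1 at 8.98 (next 9.25) and high in day 14 replicate 3 at 9.76 (next 9.35). That ganglion was also the lowest of its group for sensory neuron markers, at 11.86 (next 12.01), while for the same markers day 7 replicate 7 topped its group at 12.19 (next 12.02). Skeletal muscle markers were high in naive replicate 1 at 9.44 (next 6.49), in day 7 replicate 7 at 9.27 (next 6.96) and in day 14 replicate 2 at 7.90 (next 6.37). Naive replicate 1 was thus both the naive ganglion highest in muscle markers and the one lowest for 8 of 15 member probe sets.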

How the results depend on the processing

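The count of members past the threshold was 0 in each comparison under all 33 alternatives, 19 of which left out 1 array. Of 1458 member differences recomputed, 1449 stayed within 1 pooled SD of the reported value and 61 changed sign, the largest of these reported at 0.265 in size. Many of the 1458 could not change. The dim filter, other moderation, the compared groups alone and the threshold of 0.1 leave each difference as it was. So does leaving out an array of the group not compared. The pooled SD ran from 0.18 (Lum) to 0.51 (Ogn 1383263_at), more than many of the differences, so staying within it is a loose criterion. The 9 that moved further all came from the block by code prefix, in which day 14 rests on its 2 AJ rats. At day 14 against naive, Bgn then stood at 0.20, Ogn 1390450_a_at at 0.18, Loxl1 at 0.35, Fn1 at 0.60 and Spon2 at 0.67. For day 14 against day 7, Lum stood at 0.39, Bgn at 0.34, Loxl1 at 0.40 and Fn1 at 0.49. Spon2 ranged from 0.55 to 0.68 for day 14 against day 7 without single arrays and from 0.56 to 0.80 under the others, with adjusted p from 0.0641 (array weights) to 0.670 (prefix block). Fmod was lost to the filter on dim probe sets, and 1 value per gene gives none for single Ogn, Lox and Sparc probe sets.

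Over all probe sets, 43 passed for day 14 against naive. The count was 28 after renewed quantile normalization, 76 with array weights, 13 with the compared groups alone, 14 with 1 value per gene, 0 with the code prefix block, 9 with the replicate block, 0 with the 3' minus 5' covariate, 137 with the muscle covariate, 12 without the muscle-high arrays and 729 at an adjusted p under 0.1. Leaving out 1 array gave 5 to 401: 401 without naive replicate 1, 28 without naive 2, 5 without naive 3, 15 without naive 5, 65 without day 14 replicate 1, 26 without day 14 replicate 2, 6 without day 14 replicate 5 and 16 without day 14 replicate 6. For day 7 against naive the count was 0, but 2 with the 3' minus 5' covariate and 0 to 2 without single arrays (1 each without naive replicates 1, 2 and 3, and 2 without naive replicate 4 or day 7 replicate 6). For day 14 against day 7 it was 0, but 1 with the prefix block and 0 to 3 without single arrays (3 without naive replicate 4, 2 without day 7 replicate 1, 1 without day 7 or day 14 replicate 3). The cause was not tested.

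Replicate numbers do not pair rats, which have different codes. Of 17 same-numbered pairs, r of their deviations lay between -0.259 and 0.329, and 3 exceeded 0.1. With the replicate block, Spon2 stood at 0.59 for day 14 against day 7 (adjusted p = 0.172).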
